A study of Mus musculus with 10 samples.

Results

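Etoposide was compared with no etoposide in cells whose transcription was blocked by DRB, by listing where a fixed DNA break on chromosome 6 joined in each library. The comparison rests on 1 library a side, the DRB library and the DRB with etoposide library, chosen by their titles alone. All junctions on chromosomes 1 to 19 and X were used, which gave 3629 junctions with DRB and 2718 with DRB and etoposide, out of 68338 in the 10 libraries of the series. A junction more than 1 Mb from the bait break is called prey here. There were 489 prey junctions with DRB and 463 with DRB and etoposide.

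Both libraries came from Abelson-transformed pre-B cells of C57BL/6 background and genotype Lig4-/-, held in G1 with imatinib for 48 h. A zinc-finger nuclease, switched on with doxycycline at 1 µg/ml after the first 24 h of imatinib, cut chromosome 6 inside the T-cell receptor beta locus (40891296 to 41558371 on mm10). Both cultures received DRB for 2 h beforehand and during the treatment. The DRB with etoposide cells then had etoposide at 50 µM for 2.5 h, were washed, and recovered for 12 h. The labels name etoposide replicate 1 as the control of the DRB with etoposide library; the DRB library is the side here that differs from it by etoposide. Values without DRB come from the untreated and etoposide libraries (2 replicates each) and from 1 library each of IFN and IFN with etoposide, where IFN is given as an abbreviation only. Neither the number of cell lines nor separate cultures are stated. The files hold no RNA measure, so the extent of the transcription block was not measured here.

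Topoisomerase II relieves twists in DNA by cutting both strands, passing another duplex through and sealing the cut, and etoposide traps the enzyme before sealing. DRB inhibits CDK9, the kinase that releases RNA polymerase II into elongation. Linear-amplification-mediated translocation sequencing reads outward from the bait break and records the prey to which each bait end was joined. Lig4 is the ligase of classical end joining, so the junctions of these cells form by other end-joining routes, which often use short runs of bases that both ends share. The RAG recombinase cuts the immunoglobulin kappa locus in arrested pre-B cells, and these cuts are a further source of ends for the bait.

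A set of 6 junctions from the DRB with etoposide library shows the joints that the counts are made of; a fixed rule chose them from the genes with the most junctions. Each run reads 5′ to 3′ from the bait into the prey, with 20 bases of bait and 20 of prey around the bases in capitals, which are either shared by both ends or inserted.
Foxp1, 6 shared bases: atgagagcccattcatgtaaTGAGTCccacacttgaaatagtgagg
Gtf3c4, 3 shared bases: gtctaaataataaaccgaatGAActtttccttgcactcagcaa
Frmd4b, 3 shared bases: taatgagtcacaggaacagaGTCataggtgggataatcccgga
Kdm4b, 3 shared bases: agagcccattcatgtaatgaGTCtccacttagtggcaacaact
Foxp1, direct joint: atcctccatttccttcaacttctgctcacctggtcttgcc
Foxp1, 1 inserted base: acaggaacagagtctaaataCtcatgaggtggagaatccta
On mm10 the prey ends of these joints lay at 99369161 on chromosome 6 in Foxp1 (prey read on the plus strand), 28835332 on chromosome 2 in Gtf3c4 (plus), 97294484 on chromosome 6 in Frmd4b (plus) and 56349253 on chromosome 17 in Kdm4b (minus). The direct joint was at 99302012 and the joint with an inserted base at 99222870 on chromosome 6, both in Foxp1 and on the minus strand. All lay within gene bodies; the gene table used gives gene bounds and not exons. The bait ends of the 6 joints had lost 22 to 88 bases before the break. The Frmd4b and Kdm4b joints both shared GTC with the bait, at different bait positions.

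The depth of the pair was low. Near-bait junctions, those within 1 Mb of the break, numbered 3140 with DRB and 2255 with DRB and etoposide and served as the base of each rate. Prey junctions outside the antigen receptor loci numbered 169 and 254. The median prey alignment was 66 and 73 bases, and 9 and 4 prey junctions repeated a position already listed. Read names put the DRB library in the sequencing run of untreated replicate 2 and IFN, and the DRB with etoposide library in that of etoposide replicate 2 and IFN with etoposide, so run and etoposide cannot be told apart in any of these 3 pairs. All tests on the pair compare 2 libraries, not conditions, and with 1 library a side intervals and limits cover counting error only. Reads carry no molecular identifiers here, so copies of 1 joint may be counted more than once and the intervals may be too narrow. More prey joining and fewer near-bait junctions cannot be told apart in a rate per near-bait junction. All 320 receptor prey junctions with DRB and 208 of 209 with DRB and etoposide lay in the kappa locus, and the other 1 lay in T-cell receptor alpha and delta. The kappa locus is on the bait chromosome, and the other loci that can count as prey are not. The T-cell receptor beta locus lies wholly within 1 Mb of the break and cannot count as prey. These counts therefore cannot by themselves check the pre-B label.

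With transcription blocked, etoposide was accompanied by about double the joining to the genome outside the receptor loci. These junctions numbered 53.8 per 1000 near-bait junctions with DRB and 113 once etoposide was added, which is 2.09 times as many (1.71 to 2.56 at 95%; two-sided Fisher's exact test, adjusted p = 1.28e-12 over 3 rates). Joining to the kappa locus was 102 per 1000 with DRB and 92.2 with etoposide added, a ratio of 0.905 (0.754 to 1.09; Fisher's exact test, adjusted p = 0.288). All prey together rose from 156 to 205 per 1000, a ratio of 1.32 (1.15 to 1.51; Fisher's exact test, adjusted p = 0.000139). The receptor share of prey fell accordingly, from 65.4% (61.0 to 69.7) to 45.1% (40.5 to 49.8; Fisher's exact test, adjusted p = 3.32e-09 over 10 shares).

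The rise was smaller than in the pairs without DRB. In the replicate 2 pair, split over the same runs, joining outside the receptor loci went from 69.8 to 821 per 1000, a ratio of 11.8 (10.5 to 13.2). The ratio under DRB was 0.178 of that (0.141 to 0.224), 0.146 of the ratio in the replicate 1 pair and 0.121 of that in the IFN pair. Junctions 20 kb to 1 Mb from the break made up 0.287% and 0.710% of the near-bait base in the DRB pair. They made up 0.190% and 2.87% in the replicate 2 pair, 0.445% and 20.1% in the replicate 1 pair and 0.220% and 3.02% in the IFN pair. A larger part with etoposide lowers the ratio of a pair, most in the replicate 1 pair. The ratios between pairs were not redone on a base within 20 kb. The kappa ratio under DRB over that in the replicate 2 pair was 1.12 (0.894 to 1.40), an interval that includes no difference. After the smaller rise, junctions present without etoposide weigh more in shares of prey under DRB. Comparisons of shares between pairs below do not separate that from a different makeup of the added junctions. Without etoposide, the DRB library stood at 53.8 and untreated replicates 1 and 2 at 601 and 69.8 per 1000, so the untreated replicates, from different runs, were far apart.

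**Figure D1:**
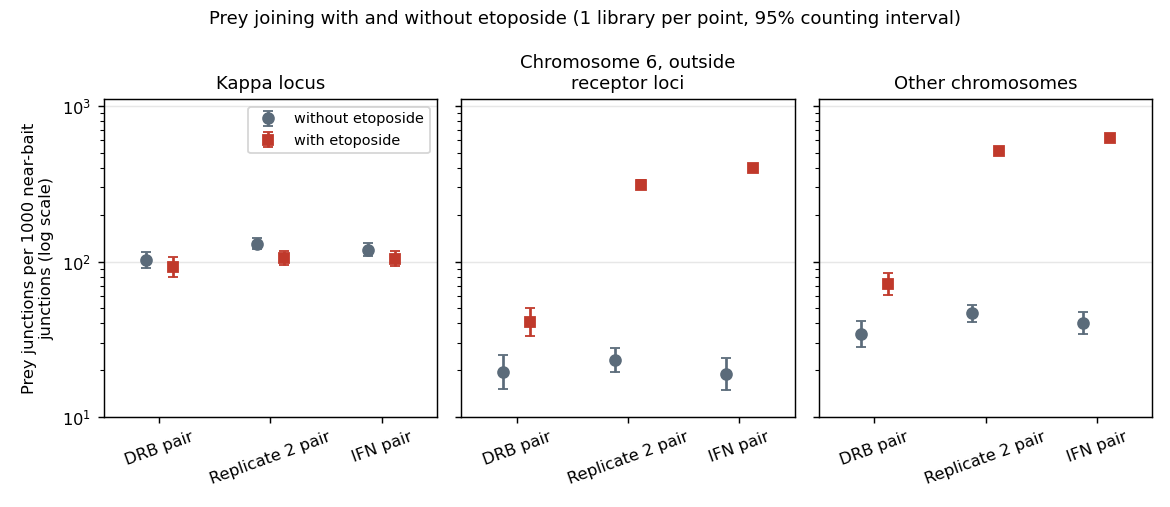
Prey junctions per 1000 near-bait junctions on a log axis, for the kappa locus, chromosome 6 outside receptor loci and all other chromosomes, in the DRB, replicate 2 and IFN pairs; each point is 1 library (grey without, red with etoposide) and bars are 95% counting intervals. On other chromosomes the DRB pair goes from 34.4 to 71.8 per 1000 and the replicate 2 pair from 46.5 to 510.

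The rise was of like size on and off the bait chromosome. Prey outside chromosome 6 went from 34.4 to 71.8 per 1000 (ratio 2.09, 1.63 to 2.68), and chromosome 6 prey outside the receptor loci from 19.4 to 40.8 per 1000 (ratio 2.10, 1.51 to 2.92). Chromosome 6, which holds 5.69% of the annotated length, held 36.1% (28.9 to 43.8) of prey outside the receptor loci with DRB and 36.2% (30.3 to 42.5) with DRB and etoposide. The difference was 0.13 percentage points (-9.22 to 9.47; Fisher's exact test, p = 1).

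The rate was higher with DRB and etoposide on 18 of the 20 chromosomes; the exceptions were chromosome 5, with 7 junctions against 3, and chromosome 13, with 6 against 3. It was at least 2-fold higher on 10 of 20 chromosomes (50%). As a share of prey, 0 of 20 chromosomes (0%) differed after adjustment (Fisher's exact test, two-sided). Chromosome 4 was the 1 chromosome with an unadjusted p under 0.05, at 1 junction with DRB and 14 with DRB and etoposide (Fisher's exact test, p = 0.00625, adjusted p = 0.125). Besides the bait chromosome, chromosomes 2 and 17 had the most prey with DRB and etoposide, 16 junctions each, against 10 and 5 with DRB. Of the 16 on chromosome 17, 4 lay at 1 position. With that position counted once, chromosome 17 falls below chromosomes 1 and 4, which had 14 junctions each.

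**Figure D2:**
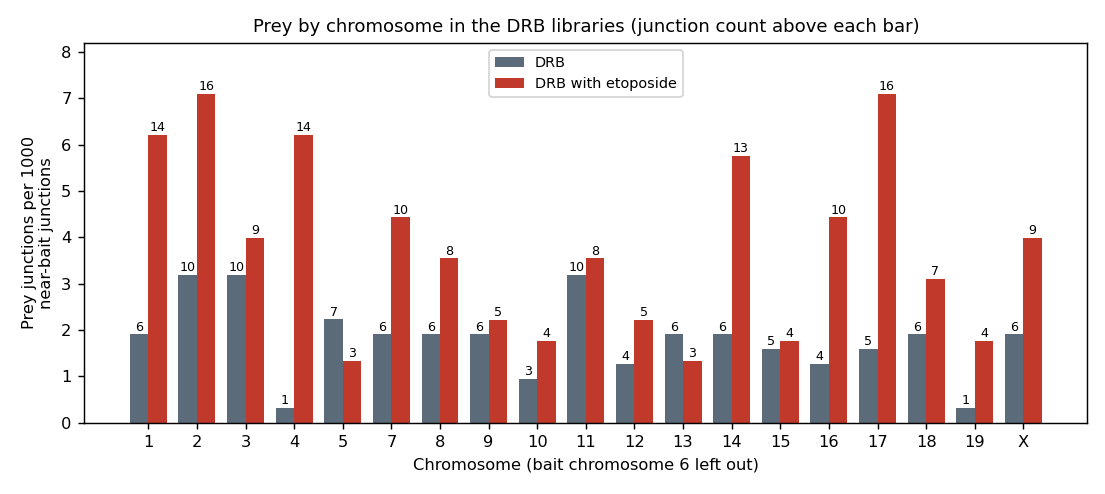
Prey junctions per 1000 near-bait junctions on each chromosome except the bait chromosome, as bars for the DRB (grey) and DRB with etoposide (red) libraries with the junction count above each bar. Counts run from 1 to 16, and chromosomes 5 and 13 are the ones with a lower bar in the etoposide library.

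Along chromosome 6, prey between 1 and 10 Mb from the break went from 4.46 to 13.3 per 1000 (ratio 2.98, 1.58 to 5.64) and prey farther away from 15.0 to 27.5 (ratio 1.84, 1.25 to 2.69). Prey on the centromere side of the break numbered 7 of 61 with DRB (11.5%, 4.74 to 22.2) and 24 of 92 with DRB and etoposide (26.1%, 17.5 to 36.3; Fisher's exact test, unadjusted p = 0.0389). That side rose 4.77-fold per near-bait junction (2.05 to 11.1) and the telomere side 1.75-fold (1.22 to 2.52). In the replicate 2 pair the centromere side held 16.3% and 28.7%. The odds ratio under DRB was 1.31 times that pair's (0.464 to 3.71), an interval that includes no difference. The split by side was chosen after its values were seen. Windows of 20 kb with 5 or more prey junctions in the 6 libraries lacking etoposide held 23 of the 61 and 12 of the 92 junctions. The split was not redone without those windows.

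**Figure D3:**
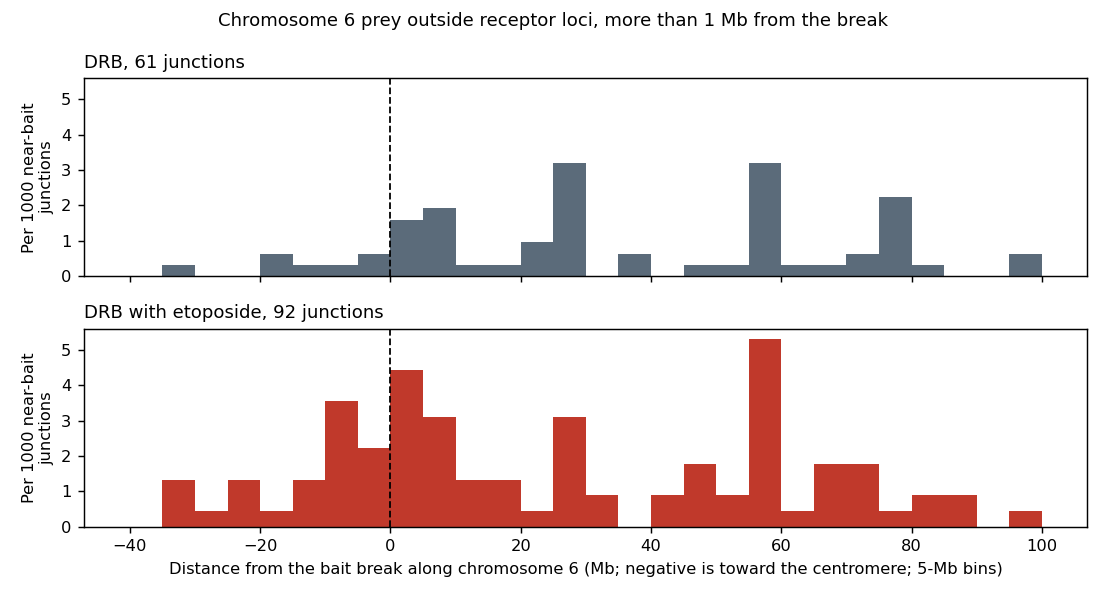
Chromosome 6 prey outside receptor loci per 1000 near-bait junctions in 5-Mb bins of distance from the bait break (dashed line), DRB above (61 junctions) and DRB with etoposide below (92 junctions). The centromere side, at negative distances, holds 7 and 24 junctions, and the highest bin of the lower panel is the one that holds Foxp1.

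On the other chromosomes, gene bodies held a larger part of prey with etoposide in the pairs without DRB, and under DRB no such shift was detectable at this depth. Protein-coding gene bodies cover 39.0% of the annotated length outside chromosome 6. They held 40 of 108 prey junctions with DRB (37.0%, 27.9 to 46.9) and 73 of 162 with DRB and etoposide (45.1%, 37.2 to 53.1), a difference of 8.02 percentage points (-3.88 to 19.9; Fisher's exact test, adjusted p = 0.698). In the replicate 2 pair the share went from 44.9% to 67.8%. The odds ratio under DRB was 0.540 of that in the replicate 2 pair (0.307 to 0.951). Against the IFN pair, which went from 47.9% to 66.4%, it was 0.649 (0.356 to 1.19), an interval that includes no difference. With chromosome 6 included it was 0.809 of the replicate 2 pair's (0.515 to 1.27). On chromosome 6 alone it was 1.83 times that pair's (0.844 to 3.98). Against the replicate 1 pair, whose libraries shared a sequencing run, it was 0.439 outside chromosome 6 (0.259 to 0.742). For that pair it was 0.576 with chromosome 6 included (0.376 to 0.882) and 1.30 on chromosome 6 alone (0.558 to 3.04). A smaller shift under DRB was thus seen in some comparisons and not in every one. Per near-bait junction, prey in gene bodies still rose 2.54-fold under DRB (1.72 to 3.75) and prey outside them 1.82-fold (1.32 to 2.51).

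No change in the share of prey at gene ends or starts passed the test under DRB. Gene ends, taken as the 5 kb on each side of either bound of a coding gene, make up 12.3% of the length and held 20.4% (13.2 to 29.2) of prey outside chromosome 6 with DRB and 21.0% (15.0 to 28.1) with DRB and etoposide (Fisher's exact test, adjusted p = 1). In the replicate 2 pair the gene end share went from 20.0% to 30.2%. The odds ratio under DRB was 0.600 of that pair's (0.302 to 1.19), an interval that includes no difference. Against the replicate 1 pair it was 0.425 (0.223 to 0.810) and against the IFN pair 0.428 (0.201 to 0.911), intervals that lie below no difference. Positions within 5 kb of a transcription start, 5.97% of the length, held 13 of 108 junctions (12.0%, 6.57 to 19.7) and 14 of 162 (8.64%, 4.81 to 14.1; Fisher's exact test, adjusted p = 0.753). Starts were known for 17274 of 21631 protein-coding genes. In the replicate 2 pair the start share went from 9.39% to 16.5%, and the odds ratio under DRB was 0.362 of that pair's (0.145 to 0.902).

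On chromosome 6, prey in gene bodies rose and prey between genes did not pass the test. Prey in chromosome 6 gene bodies went from 27 to 65 junctions, or 8.60 to 28.8 per 1000 (ratio 3.35, 2.13 to 5.27). Prey between genes went from 34 to 27 junctions, or 10.8 to 12.0 per 1000 (ratio 1.11, 0.665 to 1.84; Fisher's exact test, p = 0.698). The gene body share rose from 44.3% (31.5 to 57.6) to 70.7% (60.2 to 79.7; Fisher's exact test, unadjusted p = 0.00137), against 41.4% of the annotated length. In etoposide replicate 2 it was also 70.7%, and in untreated replicate 2 it was 59.3%. This share was chosen after its values were seen. It rests in part on places that were joined again and again without etoposide: windows of 20 kb that collected 5 or more prey junctions in the 6 libraries lacking etoposide held 18 of the 34 intergenic junctions with DRB and 3 of 27 with DRB and etoposide. Without those windows the shares were 57.9% and 70.0%, a difference of 12.1 percentage points (Fisher's exact test, p = 0.216). The 6 libraries included the DRB library itself and those in which the restriction enzyme AsiSI was induced, but not the DRB with etoposide library. Leaving out the windows thus removed DRB junctions in part by construction, so it is not an independent check of the share.

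**Figure D4:**
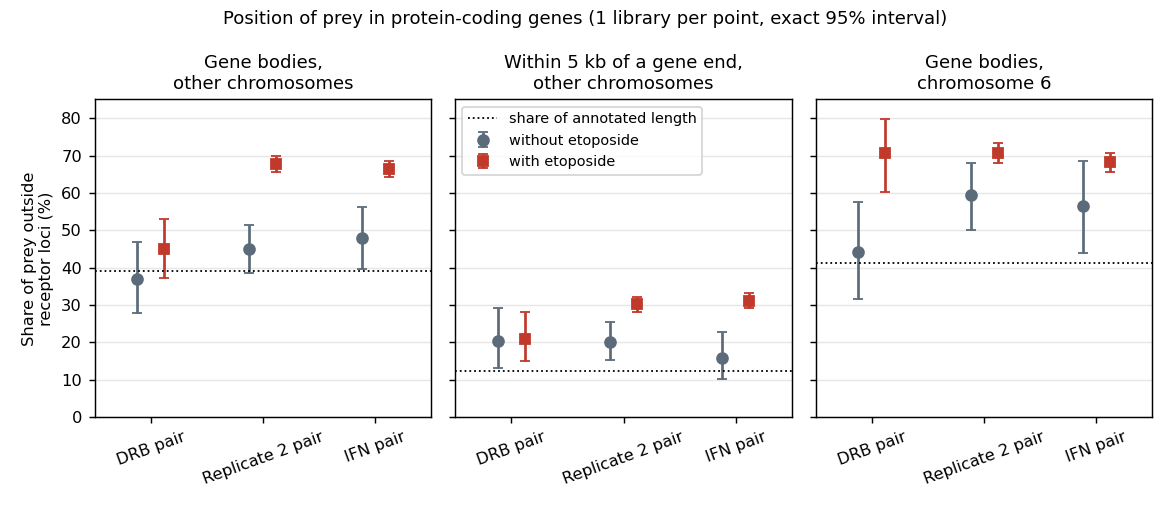
Share of prey in gene bodies and near gene ends on other chromosomes, and in gene bodies on chromosome 6, for the DRB, replicate 2 and IFN pairs; points are single libraries (grey without, red with etoposide), bars exact 95% intervals and dotted lines the share of annotated length. On other chromosomes the DRB with etoposide library sits at 45.1% and etoposide replicate 2 at 67.8%; on chromosome 6 both sit at 70.7%.

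Most joined genes had 1 junction. Of 21631 protein-coding genes, prey lay in 58 with DRB and in 120 with DRB and etoposide, and 9 genes were joined in both. These genes held 67 and 138 junctions, so the number of genes largely restates the number of junctions. At so few junctions, a small overlap does not show that the libraries joined different genes. Genes with 2 or more junctions numbered 1 with DRB and 7 with DRB and etoposide. Of 3 genes with at least 3 junctions over the pair, 1 (33.3%) was at least 2-fold higher per near-bait junction with DRB and etoposide and 0 (0%) were at least 2-fold lower. For 1 of the 3 no fold could be given, since both libraries are within the 3 counts that a count of 0 allows. The gene called higher had few junctions, and the interval of its ratio includes no difference. These shares therefore do not describe genes in general. Foxp1, a forkhead transcription factor needed in early B-cell development, had 10 junctions in each library, or 3.18 and 4.43 per 1000 (ratio 1.39, 0.579 to 3.35). It had 27 junctions in untreated replicate 2 and 37 in etoposide replicate 2, and it was the most joined of the named genes in all 6 libraries of the DRB, replicate 2 and IFN pairs.

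Among genes with 0 junctions with DRB, 5 had 2 or more with DRB and etoposide. Gtf3c4, a subunit of the RNA polymerase III factor TFIIIC, had 0 and 3 junctions. Its window on chromosome 2 was also joined without etoposide, with 5 junctions in Gtf3c4 in untreated replicate 2 and 9 in a library in which the restriction enzyme AsiSI was induced in place of etoposide. Frmd4b, a FERM-domain scaffold protein, had 0 and 2 junctions, and 21 and 8 in the 2 etoposide libraries against 0 in both untreated ones. Umad1 had 0 and 2 junctions, and 6 and 1 with etoposide without DRB. Kdm4b, a histone H3 lysine demethylase, had 0 and 2 junctions and 1 in each etoposide library. Nebl, an actin-binding muscle protein, had 0 and 2 junctions and 1 and 0 with etoposide without DRB. No fold is given for these, since both libraries are within the 3 counts that a count of 0 allows.

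The rest of the genes named by rule had 1 junction and were ordered by symbol. With DRB and etoposide they included, on chromosome 6, the autophagy enzyme gene Atg7, with 19 and 2 junctions in the etoposide libraries, and the lipid kinase gene Agk, with 20 and 5. Others lay on other chromosomes, such as Acvr1b, an activin receptor, with 1 and 0 junctions in the etoposide libraries. With DRB they included Braf, a kinase of the MAP kinase cascade, with 1 junction and then 0 with DRB and etoposide, against 20 and 19 in the etoposide libraries. Besides Foxp1, the genes joined in both DRB libraries included BC034090, Ccser1, Cntnap2, Creb5, Cyfip2, Eif2ak3 and Narf, with 1 junction in each; they were named after their values were seen.

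Many of the genes joined under DRB and etoposide were also joined by etoposide without DRB. Of the 120 genes, 88 (73.3%) held a junction in either or both of the etoposide libraries, as did 33 of the 58 genes with DRB alone (56.9%). Of all 21631 protein-coding genes, 4099 (18.9%) were joined in those libraries. The 88 made up 2.15% of these 4099 and the 33 made up 0.805%. On chromosome 6 the shares were 46 of 51 genes (90.2%) and 16 of 18 (88.9%), and outside it 42 of 69 (60.9%) and 17 of 40 (42.5%). Among all protein-coding genes, the etoposide libraries joined 573 of 1126 on chromosome 6 (50.9%) and 3526 of 20505 outside it (17.2%). Genes with at least 5 junctions in both etoposide libraries, a set fixed on libraries outside this pair, numbered 44, all on chromosome 6, and held 12 of 169 prey junctions with DRB (7.10%) and 27 of 254 with DRB and etoposide (10.6%; Fisher's exact test, p = 0.235). Per near-bait junction they rose 3.13-fold (1.58 to 6.20), beside 3.35-fold (2.13 to 5.27) for all gene bodies of chromosome 6. All protein-coding genes together went from 67 to 138 junctions, or 2.87-fold (2.13 to 3.86).

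The gene lists gave few junctions, and all are described by counts. The 33 B-lineage genes held 10 junctions with DRB and 12 with DRB and etoposide: Foxp1 with 10 and 10, the tyrosine kinase gene Syk with 0 and 1, and Il7r, the interleukin 7 receptor chain, with 0 and 1. The 35 genes known from leukaemia translocations held 10 and 11, from Foxp1 and from Aff1, a scaffold of the super elongation complex and a fusion partner of Kmt2a, which had 0 and 1. Aff1 was also the 1 junction in the 27 genes of the elongation machinery, which held 0 with DRB. The 30 long neural genes held 2 and 2, among them Cntnap2 at 1 and 1 and the glutamate receptor gene Grm7 at 0 and 1. The 30 immediate-early genes held 1 with DRB, in Nr4a1, and 0 with DRB and etoposide; Nr4a1 was named after its values were seen. The 30 housekeeping genes, 20 p53 target genes and 20 genes of other blood lineages held 0 junctions in both libraries, which allows up to 3 of 254 with DRB and etoposide.

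Several 20-kb windows besides those of Foxp1 held 3 or more junctions over the pair, and no test was made of single windows. The windows on chromosome 6 from 70720000 to 70739999 and from 70740000 to 70759999, next to the kappa locus, had 3 and 4 junctions with DRB and 2 and 1 with DRB and etoposide. A window on chromosome 6 from 120600000 to 120619999, which holds no protein-coding gene, had 7 junctions with DRB and 0 with DRB and etoposide; it had 8 and 7 in replicate 2 of untreated and etoposide. The window of Zfp956, a zinc-finger gene on chromosome 6, had 4 and 0. A window on chromosome 14 from 19400000 to 19419999 had 0 and 6, of which 5 had over 5% mismatches to the genome. The window of Crisp1 on chromosome 17 had 1 and 4 junctions, and the 4 lay at 1 position. With only alignments of at most 5% mismatches, chosen after the data were seen, the ratio for prey outside the receptor loci was 2.00, and with identical positions counted once it was 1.96. Exactly 1 prey position outside the receptor loci was shared between the DRB libraries, of 169 and 251 positions.

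No preference for the direction of transcription was detectable in genes. Outside chromosome 6, where the strand of the gene was known, the prey read ran along the gene in 18 of 31 junctions with DRB (58.1%, 39.1 to 75.5) and 24 of 53 with DRB and etoposide (45.3%, 31.6 to 59.6). The part of the gene nearer its start held 51.6% and 56.6%. The joined genes had a median length of 116 kb with DRB and 77.8 kb with DRB and etoposide, and genes over 100 kb held 57.5% (40.9 to 73.0) and 43.8% (32.2 to 55.9); the medians were 109 and 69.6 kb in untreated and etoposide replicate 2.

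Strand did not differ detectably either. The plus strand, on which a prey read runs toward the telomere, held 60.2% (50.3 to 69.5) of prey outside chromosome 6 with DRB and 54.9% (46.9 to 62.8) with DRB and etoposide, a difference of -5.25 percentage points (-17.2 to 6.75; Fisher's exact test, adjusted p = 0.753). On chromosome 6 the minus strand, on which the read runs toward the centromere, held 47.5% and 42.4%, a difference of -5.15 percentage points (-21.2 to 10.9; Fisher's exact test, adjusted p = 0.841). Per near-bait junction both strands rose, the plus strand 2.04-fold (1.57 to 2.65) and the minus strand 2.17-fold (1.60 to 2.93).

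No shift in the makeup of the joints passed the test over all prey. Overlap is the number of bases at the joint that align to both bait and prey; a negative value counts inserted bases that align to neither. Over all prey the mean overlap was 2.15 with DRB and 2.06 with DRB and etoposide, a difference of -0.08 bases (-0.69 to 0.52, from the spread over junctions). Joints with at least 3 bases of overlap made up 49.1% and 54.2% (Fisher's exact test, adjusted p = 0.598), direct joints 10.0% and 11.0% (Fisher's exact test, adjusted p = 0.841) and joints with inserted bases 11.9% and 10.2% (Fisher's exact test, adjusted p = 0.753).

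Outside the receptor loci, the DRB and replicate 2 pairs differed in how the makeup of the joints moved. Inserted bases were found in 24 of 169 joints with DRB (14.2%, 9.32 to 20.4) and 31 of 254 with DRB and etoposide (12.2%, 8.45 to 16.9), whereas the replicate 2 pair went from 13.9% to 3.28%. The odds ratio under DRB was 3.99 times that of the replicate 2 pair (2.04 to 7.81). Joints with at least 3 bases of overlap were 46.2% and 47.6% in the DRB pair and went from 36.4% to 56.6% in the replicate 2 pair; here the odds ratio under DRB was 0.465 of the other (0.297 to 0.729). Joints with inserted bases rose 1.80-fold per near-bait junction under DRB (1.05 to 3.07) and 2.78-fold without it (1.99 to 3.89). Joints with 3 to 5 bases of overlap rose 1.88-fold (1.34 to 2.64) against 17.7-fold (14.5 to 21.4). Joints with at least 6 bases, such as the one shown for Foxp1, rose 3.09-fold (1.77 to 5.41) against 22.3-fold (14.0 to 35.4). These splits outside the receptor loci were partly chosen after values were seen and carry no adjustment.

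**Figure D5:**
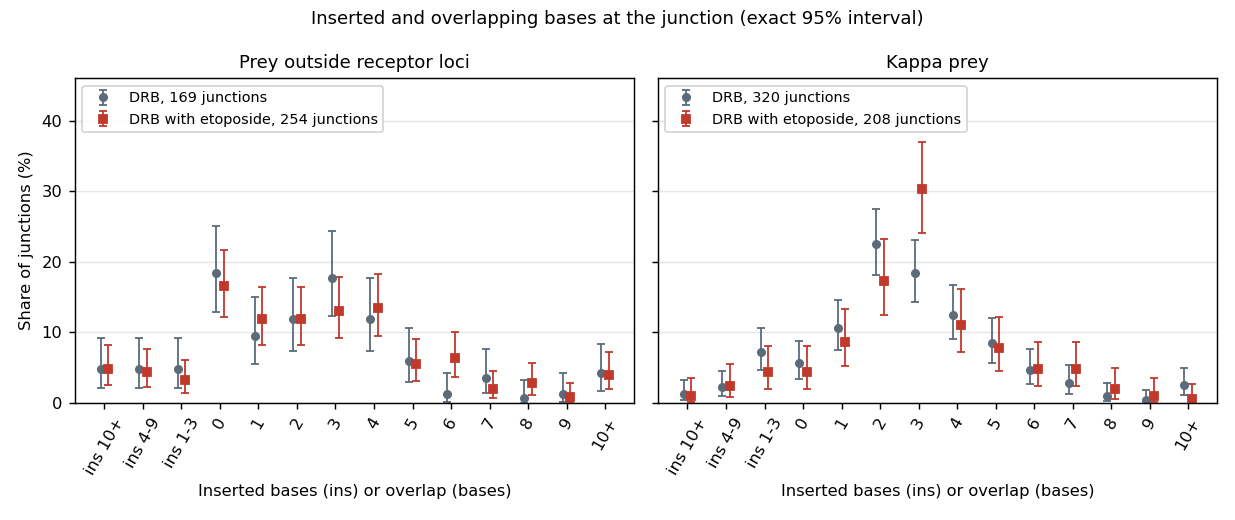
Share of joints with inserted bases (ins, left of 0) or with a given overlap, for prey outside receptor loci (left) and kappa prey (right), in the DRB (grey) and DRB with etoposide (red) libraries with exact 95% intervals. Outside the receptor loci the intervals overlap in every class; in kappa prey an overlap of 3 bases holds 18.4% with DRB and 30.3% with DRB and etoposide.

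The loss of bases on the bait side differed little in the DRB pair. For prey outside the receptor loci the bait end lay a median of 35 bases before the break with DRB (quartiles 13 and 70) and 43.5 with DRB and etoposide (15 and 72), against 44 and 60 in the replicate 2 pair. It lay within 5 bases of the break in 10.1% (5.97 to 15.6) and 12.6% (8.78 to 17.3; Fisher's exact test, unadjusted p = 0.443).

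Within the kappa locus, V segments took most junctions in both libraries. The J segments, to which RAG joins V segments, held 20 of 320 kappa junctions with DRB (6.25%) and 16 of 208 with DRB and etoposide (7.69%). V segments held 185 (57.8%) and 110 (52.9%), and positions over 1 kb from a segment 115 (35.9%) and 82 (39.4%); none of the 3 shares passed the test (Fisher's exact test, unadjusted p of 0.597, 0.282 and 0.461). Igkv6-32 was the most joined segment in both, with 28 and 17 junctions, followed with DRB by Igkv11-114 (16 and 6) and Igkv9-123 (15 and 12). Igkv19-93 had 10 junctions with DRB and 1 with DRB and etoposide, a ratio of 0.139 (0.0178 to 1.09). Kappa joints with at least 3 bases of overlap made up 50.6% (45.0 to 56.2) with DRB and 62.0% (55.0 to 68.6) with DRB and etoposide (Fisher's exact test, unadjusted p = 0.0121), a split chosen after its values were seen.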

How the data were processed

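Per the file headers, each row of the authors' deposited files is 1 junction, given by coordinate, orientation, read and both alignments, without normalized values. The reads came from a MiSeq and went through the assay's standard pipeline, per the labels' protocols. Builds mm10 and GRCm38.p2 and the tool bedtools are listed in the submitters' processing notes. Read filters and aligner settings are not given in the sources used here. All rows on chromosomes 1 to 19 and X were used, with 8 rows of the DRB with etoposide library on other sequences left out.

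Genes came from the RefSeq table of GRCm38.p6 and strands from the RefSeq promoter table. Antigen receptor loci were runs of at least 10 segments with gaps of at most 1 Mb. Sequences were cut from the deposited reads. Rates are per 1000 junctions within 1 Mb of the break. Ratios have 95% intervals on the log scale with Poisson counts on both sides, and shares have exact Clopper-Pearson intervals. Fisher's exact test (two-sided) compared shares, with Benjamini-Hochberg adjustment over 10 shares, 3 rates and 20 chromosomes and a threshold of 0.05 (Python 3.11.15, scipy 1.17.1, statsmodels 0.14.6). The code was tested on simulated counts. Genes were named by a rule: the 20 with the most prey junctions with DRB and etoposide, the 10 with the most with DRB, and up to 4 members of each list; some genes that the rule names are not reported here. The comparison, lists and members were chosen with earlier results of these data known. Alternatives covered repeated positions, alignment length, mismatches, distance limits, gene bounds, recurrent windows and the comparison pair.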

Additional observations from a re-analysis of the deposited data

Results flagged for a closer look

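The rise with etoposide differed between the DRB pair and the replicate 2 pair, by the ratio of the ratios, in the following classes of prey outside the receptor loci. The rise under DRB was 0.178 of that without DRB for all such prey (0.141 to 0.224), 0.190 for other chromosomes (0.143 to 0.253) and 0.157 for chromosome 6 (0.108 to 0.230). Outside chromosome 6 it was 0.153 for gene bodies (0.0991 to 0.237) and 0.284 for positions outside them (0.196 to 0.412). For prey with inserted bases the value was 0.646 (0.344 to 1.22), an interval that includes no difference. For these prey it was 0.588 against the replicate 1 pair (0.329 to 1.05) and 0.376 against the IFN pair (0.183 to 0.771). Only the last interval lies below no difference. Each of these tests covers counting error in 4 libraries.

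The makeup of prey also shifted differently in the pairs. The odds ratio under DRB over that in the replicate 2 pair was 6.27 for the receptor share, 0.540 for the gene body share, 0.362 for the transcription start share and 2.42 for the share with inserted bases over all prey. The receptor value restates the rates of kappa and other prey given above. Prey outside the receptor loci rose 2.09-fold under DRB and 11.8-fold in the replicate 2 pair, so junctions present without etoposide weigh more in the DRB shares. Odds ratios of shares do not separate that from a different makeup of the added junctions. For the gene body share the value was 0.649 against the IFN pair (0.356 to 1.19) and, with chromosome 6 included, 0.809 against the replicate 2 pair (0.515 to 1.27), and both intervals include no difference. Against the replicate 1 pair it was 0.439 (0.259 to 0.742), and 0.576 with chromosome 6 included (0.376 to 0.882).

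Mitochondrial junctions, which no comparison uses, made up 5 of 2726 rows (0.183%) with DRB and etoposide and 0 of 3629 with DRB, which allows up to 0.0827%. The other libraries held 0 to 14 such rows.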

How the results depend on the processing

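Of 82 alternatives over 18 results, 74 stayed on the same side of the threshold with the same direction or, for results without a test, moved by less than their spread. Among the latter, the difference in mean overlap changed sign, to 0.00799 bases with identical positions counted once, 0.12 without recurrent windows and 0.02 without receptor loci. The ratio for prey outside the receptor loci ran from 1.96 to 2.32, that for all prey from 1.26 to 1.36 and that for kappa from 0.862 to 0.909. The gene body share outside chromosome 6 passed the threshold once chromosome 6 was included, at 14.7 percentage points (Fisher's exact test, adjusted p = 0.0196). The chromosome 6 gene body share lost its call without recurrent windows, at 12.1 points, and ran up to 36.1 points elsewhere. Those windows were defined in part on the DRB library itself. Differences in tested shares that missed the threshold changed sign in 6 cases, and the cause was not tested: the gene end share at -0.87 points with identical positions counted once and -3.64 with alignments of at least 50 bases, the chromosome 6 share at -5.82 and the centromere-side orientation at 1.09 points with those alignments, and direct joints at -4.84 points without recurrent windows and -1.81 without receptor loci. With 108 and 162 prey junctions outside chromosome 6, the interval of the gene body difference runs from -3.88 to 19.9 points. No paired analysis was possible because the DRB groups hold 1 library each, and for the same reason no replicate could be left out.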
